A study of Rattus norvegicus with 4 samples.

Results

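ADAMTS genes encode secreted zinc metalloproteinases that carry thrombospondin type 1 repeats and act in the extracellular matrix. The 10 genes described here, Adamts1, Adamts2, Adamts4, Adamts5, Adamts6, Adamts7, Adamts9, Adamts10, Adamts12 and Adamts15, are the entries of those names in a table of 32545 rat genes. Adamts15 and Adamts9 were chosen because their transcripts were as deeply lowered as the siRNA targets, so their differences are given as descriptions without a test. The other 8 were listed as family members, and 8 further ADAMTS genes in the table, Adamts20 among them, are set beside them.

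The enzymes are made as proenzymes. Proprotein convertases such as furin remove the prodomain, and the thrombospondin repeats guide the enzyme to its substrates. One branch of the family cuts the large proteoglycans aggrecan and versican, another trims fibrillar procollagens, and others act on fibrillin microfibrils or cartilage oligomeric matrix protein. Versican and related chondroitin sulfate proteoglycans are components of the peripheral nerve matrix, to which Schwann cells contribute.

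Polyadenylated RNA was measured in S16 cells, a rat Schwann cell line. In one group, 2 libraries came from cells that received a non-targeting control siRNA (IDT DS NC1). In the other, 2 libraries came from cells that received siRNAs against Nr2f1 and Nr2f2 together, the genes of COUP-TFI and COUP-TFII, nuclear receptors that act as transcription factors. The treatment protocol lists 1 siRNA per target, both groups were transfected with the same lipid reagent, and the labels give neither the time of harvest nor whether the libraries of a group came from separate cultures. P-values here thus reflect library-to-library spread, which could be technical alone.

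Libraries are named A and B by column order. They held from 21556011 (control B) to 43057750 (siRNA B) gene-assigned counts, and 3 counts correspond to between 0.0697 and 0.139 CPM, counts scaled to library size. The siRNA libraries kept 27.1% of the control level of Nr2f1 and 24.4% of that of Nr2f2, and in no library did either target go against its label. The Schwann cell markers Sox10, S100b, Pmp22, Erbb3, Ngfr and Egr2 were each above 20 CPM in every library, Cdh19 was below 1 CPM throughout and Gap43 had no count. The 4 endothelial markers in the table summed to between 13.1 and 17.2 CPM, the 6 macrophage markers to between 1.55 and 1.83 CPM and the 6 neuronal markers to between 8.01 and 10.4 CPM, with Ptprc, Cdh5 and Rbfox3 at 0. Mural and smooth muscle markers summed to between 74.7 and 86.5 CPM. Most of that sum was Acta2 (68.0 to 80.7 CPM), and most of the neuronal sum was Slc17a6 (6.96 to 9.81 CPM). The fibroblast markers Dcn, Lum and Dpt had no count, while Col1a1 was abundant and Pdgfrb was lower in the siRNA libraries (log2 fold change -1.40, adjusted p = 2.56e-07). Pdgfra, on the same list, went the other way but did not pass (0.885, adjusted p = 0.0505). Pmp22 (0.32, adjusted p = 0.00552) and the endothelial marker Vwf (0.69, adjusted p = 0.00762) were higher in the siRNA libraries. Tek, the other endothelial marker tested, was lower but did not pass (-0.44, adjusted p = 0.166). The part of these markers in any ADAMTS result was not tested.

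All 10 members passed the filter on low counts. Levels below are CPM after TMM scaling. A positive log2 fold change means a higher level with the Nr2f1/Nr2f2 siRNAs, and each adjusted p is from the quasi-likelihood test of edgeR, adjusted by the Benjamini-Hochberg method over 13018 tested genes. Of these genes 18.1% were called at an adjusted p under 0.05, 8.05% higher and 10.0% lower. Scaled by library size alone, 57.7% of called genes were higher, against 44.6% with TMM, and the median log2 fold change moved up by 0.052. In bulk RNA, fewer cells of a kind and less RNA per cell cannot be told apart.

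In S16 cells the family was led by Adamts5 and Adamts20. Per kilobase of gene length, Adamts5 was at 74.0 ± 1.01 CPM per kilobase (SD, n = 2) in the control libraries and Adamts20 at 69.5 ± 5.29. In control library A the 2 genes nearly coincided, at 73.3 and 73.2, and their means differed by less than the SD of Adamts20. Adamts4 followed at 40.2 ± 6.62 CPM per kilobase and did not overlap either of them. Adamts2 (20.6 ± 2.88) and Adamts15 (18.1 ± 0.489) came next, and their means differed by less than the SD of Adamts2. Adamts10 stood at 14.9 ± 0.620, and Adamts1 (11.9 ± 1.29) and Adamts7 (11.3 ± 0.871) overlapped each other. Adamts9 was at 8.65 ± 0.969 CPM per kilobase, Adamts17 at 4.06 ± 0.168, Adamts6 at 2.73 ± 0.0806 and Adamts12 at 0.103 ± 0.0244. Adamts15 and Adamts9 were thus genes of intermediate level in this line, not its main ADAMTS transcripts. Adamts3, Adamts8, Adamts14 and Adamts19 had between 1 and 18 counts over all libraries and were not tested, and Adamts16 and Adamts18 had none.

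**Figure D1:**
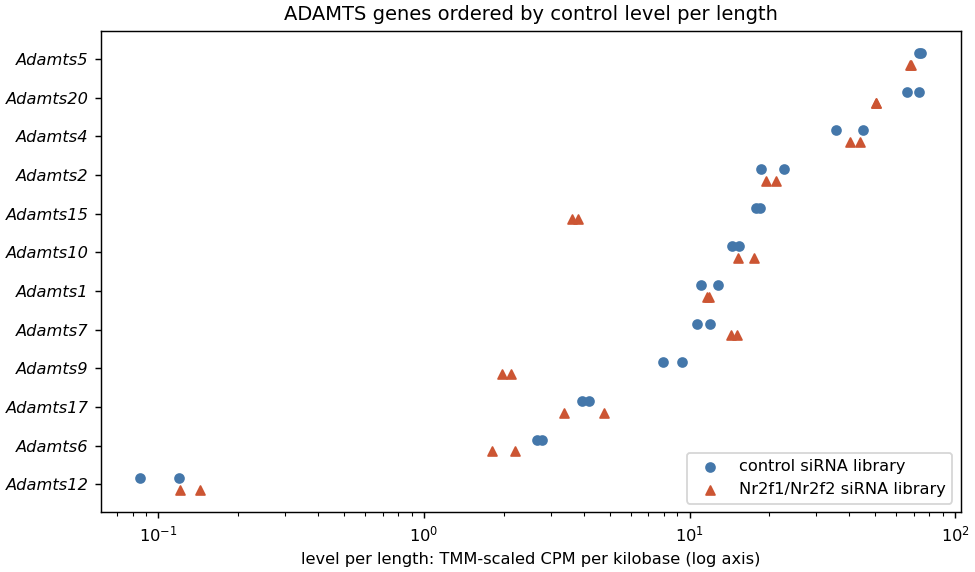
Level per length (TMM-scaled CPM per kilobase, log axis) of the 12 tested ADAMTS genes in each of the 4 libraries, ordered by the control mean; circles are control siRNA libraries and triangles Nr2f1/Nr2f2 siRNA libraries. The control means run from 0.103 for Adamts12 to 74.0 for Adamts5, and the siRNA libraries of Adamts15 and Adamts9 lie well to the left of their control libraries.

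Adamts15 encodes a protease of the aggrecan- and versican-cutting branch. It had 108 and 112 CPM in controls A and B and 21.9 and 23.1 CPM in siRNA A and B. Both siRNA libraries lay far below both control libraries, and libraries of the same group were within 1.04-fold (control) and 1.05-fold (siRNA) of each other. The mean went from 109.7 ± 2.97 to 22.5 ± 0.829 CPM (SD, n = 2), which is 20.5% of the control level, and the fitted log2 fold change was -2.28 (SE 0.09). The value ranged from -2.33 to -2.23 over all alternative settings and left-out libraries. Adamts15 (ENSRNOG00000009892) lies on chromosome 8 from 31977001 to 32000378 on the minus strand, by the coordinates in the deposited files (build not stated in the sources used).

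Adamts9 encodes a large protease that cuts versican and aggrecan and carries a C-terminal GON domain, which it shares with its closest relative Adamts20. It had 74.3 and 63.4 CPM in controls A and B and 15.6 and 17.0 CPM in siRNA A and B. The groups were again widely apart. The mean went from 68.9 ± 7.72 to 16.3 ± 0.977 CPM, which is 23.7% of the control level, with a log2 fold change of -2.07 (SE 0.11) and a range of -2.19 to -1.95 over the alternatives. Adamts9 (ENSRNOG00000023257) lies on chromosome 4 from 124660262 to 124858250 on the minus strand.

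These values are what the choice of Adamts15 and Adamts9 rested on. For comparison, Nr2f1 had a log2 fold change of -1.89 and Nr2f2 of -2.03. Ordered from the lowest of 13018 tested genes, Adamts15 ranked 27, Adamts9 35, Nr2f2 37 and Nr2f1 48. Just inside the choice lay Adamts9 at -2.07, and just outside it Adamts6 at -0.42 and, among the ADAMTS genes that are not members, Adamts20 at -0.46. No ADAMTS gene that was tested had a value in between.

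**Figure D2:**
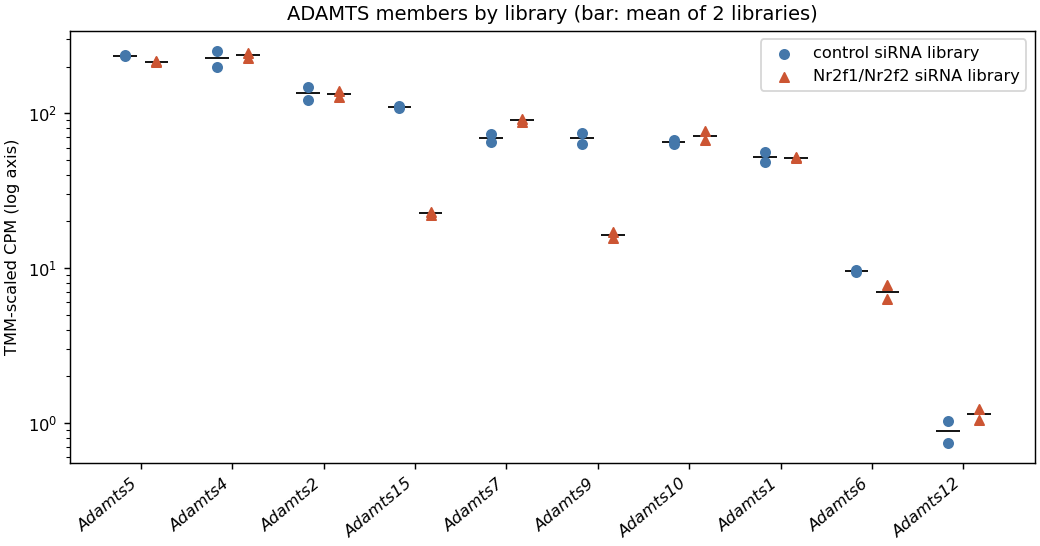
TMM-scaled CPM (log axis) of the 10 members in each library, ordered by the control mean; circles are control siRNA libraries, triangles Nr2f1/Nr2f2 siRNA libraries and bars the mean of 2 libraries. Adamts15 (108 and 112 CPM against 21.9 and 23.1) and Adamts9 (74.3 and 63.4 CPM against 15.6 and 17.0) stand apart from the other 8. The siRNA means of those 8 were between 73.4% (Adamts6) and 129.7% (Adamts7) of their control means.

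Adamts20, the nearest relative of Adamts9 and in the mouse the gene of the belted coat-colour mutation, was not among the genes chosen for a deep fall. It had 424 and 381 CPM in controls A and B and 292 and 293 CPM in siRNA A and B. Both siRNA libraries were below both control libraries, and the siRNA libraries hardly differed from each other. Adamts20 fell from 402.4 ± 30.7 to 292.2 ± 0.942 CPM (SD, n = 2), a log2 difference of -0.46 (SE 0.08, adjusted p = 0.00136), to 72.6% of the control level. It remained past the threshold in all 11 alternative fits, with log2 fold changes between -0.55 and -0.39. Adamts20 (ENSRNOG00000033397) lies on chromosome 7 from 135466884 to 135630654 on the minus strand.

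The promoters of this related pair are shown with that of Adamts7, a member with the opposite direction. The sequences are the 250 bases before the RefSeq transcription start in build GRCr8, with matches to the GC box GGGCGG and to TATAAA, on either strand, in capitals.
Adamts9 (chr4:127019877-127020126, minus strand): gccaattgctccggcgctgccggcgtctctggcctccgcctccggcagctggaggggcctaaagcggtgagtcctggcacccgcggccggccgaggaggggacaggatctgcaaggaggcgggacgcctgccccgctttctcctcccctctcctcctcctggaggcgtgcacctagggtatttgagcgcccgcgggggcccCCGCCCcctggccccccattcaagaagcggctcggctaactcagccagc
Adamts20 (chr7:127407297-127407546, minus strand): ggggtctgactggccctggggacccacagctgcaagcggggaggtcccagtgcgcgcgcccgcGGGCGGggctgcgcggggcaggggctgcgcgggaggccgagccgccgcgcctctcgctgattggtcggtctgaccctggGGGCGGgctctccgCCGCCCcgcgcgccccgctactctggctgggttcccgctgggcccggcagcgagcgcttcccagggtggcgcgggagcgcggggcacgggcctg
Adamts7 (chr8:99584279-99584528, plus strand): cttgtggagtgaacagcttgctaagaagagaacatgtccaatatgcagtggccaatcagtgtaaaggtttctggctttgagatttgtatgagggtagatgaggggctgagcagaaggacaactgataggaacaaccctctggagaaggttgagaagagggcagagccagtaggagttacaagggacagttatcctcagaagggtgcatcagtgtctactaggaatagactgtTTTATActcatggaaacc
The window searched ran from 250 bases before to 50 bases after the start, and 8 of the 10 members were matched, all but Adamts15 and Adamts5. AGGTCA, the half-site bound by COUP-TFs and many other nuclear receptors, was found on either strand in 1 of these 8 (Adamts6, at position -241 from the start) and in 16.2% of all 33469 rat promoter windows of that length. It was not among the letters of the Adamts9, Adamts20 or Adamts7 windows. The direct repeat of AGGTCA with a spacer of 1 base was in none of the 8 and in 0.0538% of all windows. Only exact matches were searched, so half-sites with other letters, other spacings and sites outside the window were not looked at. GGGCGG occurred 3 times in the Adamts20 window and 1 time in that of Adamts9, against 33.1% of all windows with at least 1 match, and TATAAA occurred in that of Adamts7, as in 14.2% of all windows. The windows of Adamts9 (72.3% G+C) and Adamts20 (79.3% G+C) were above the upper quartile of all promoters, 60.3%, while that of Adamts7 (46.7% G+C) was below their median of 51.7%. Whether G+C content or GGGCGG matches go with direction in the family was not tested. The raised genes Adamtsl3 (78.3% G+C, 4 matches) and Adamtsl4 (72.3%, 2 matches) and the members Adamts2 (76.7%, 5 matches) and Adamts10 (71.0%, 3 matches), which did not pass the test, were also rich in both.

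The other members of the proteoglycan-cutting branch, Adamts1, Adamts4 and Adamts5, did not pass the test. Adamts5, which encodes a major aggrecanase, had 233 and 238 CPM in controls A and B and 216 and 215 CPM in siRNA A and B. The groups did not overlap, but the difference was small (log2 fold change -0.13, 95% interval -0.28 to 0.03, adjusted p = 0.253). Adamts4, which encodes another aggrecanase, had 200.3 and 253 CPM in the controls and 246 and 227 CPM in the siRNA libraries. The siRNA values lay between the control values (log2 fold change 0.06, interval -0.18 to 0.30, adjusted p = 0.740), and control libraries A and B differed from each other 1.26-fold. Adamts1, whose protease also cuts versican, had 48.4 and 56.4 CPM in the controls, against 51.9 and 51.2 CPM in siRNA A and B (log2 fold change -0.02, interval -0.23 to 0.19, adjusted p = 0.904). The upper and lower ends of these intervals exclude a change as large as that of Adamts15 or Adamts9 but leave room for modest ones.

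Adamts2 encodes the main procollagen N-proteinase, which removes the amino-terminal propeptides of fibrillar procollagens. It had 148 and 122 CPM in controls A and B and 138 and 127 CPM in siRNA A and B, so the siRNA values lay within the control range. Its log2 fold change was -0.03 (95% interval -0.24 to 0.19, adjusted p = 0.885). Its relatives Adamts3 and Adamts14 had 12 and 2 counts over all libraries.

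Adamts10 and Adamts6 encode a pair of related proteases connected with fibrillin microfibrils, and in humans ADAMTS10 is mutated in Weill-Marchesani syndrome. Adamts10 had 63.5 and 67.4 CPM in controls A and B and 76.3 and 67.0 CPM in siRNA A and B. The groups overlapped (log2 fold change 0.13, 95% interval -0.07 to 0.33, adjusted p = 0.376). Adamts6 had 9.77 and 9.37 CPM in the controls, against 6.32 and 7.74 CPM in siRNA A and B. Both siRNA libraries were below both control libraries, but after adjustment the difference did not pass (log2 fold change -0.42, interval -0.79 to -0.06, adjusted p = 0.103). Adamts6 rested on 453 control counts and 504 siRNA counts, a rate ratio of 0.752 (95% exact Clopper-Pearson interval 0.661 to 0.855, counting error only).

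Adamts7 and Adamts12 encode related proteases that cut cartilage oligomeric matrix protein. Adamts7 had 73.0 and 65.5 CPM in controls A and B and 92.2 and 87.4 CPM in siRNA A and B. Both siRNA libraries were above both control libraries. Adamts7 rose from 69.2 ± 5.33 to 89.8 ± 3.38 CPM (SD, n = 2), a log2 difference of 0.37 (SE 0.09, 95% interval 0.18 to 0.56, adjusted p = 0.0109). The call was lost without control library B (0.29, adjusted p = 0.0835) and without siRNA library A (0.33, adjusted p = 0.0669). Adamts7 (ENSRNOG00000028036) lies on chromosome 8 from 97535777 to 97575655 on the plus strand. Adamts12 was barely detected, with 19 and 22 counts in the control libraries and 27 and 54 in the siRNA libraries, or 0.734 and 1.03 CPM against 1.03 and 1.23 CPM. Its rate ratio of 1.33 had an exact 95% interval of 0.906 to 1.99, and the edgeR test gave an adjusted p = 0.529.

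Across the 8 members not chosen for their falls, 1 rose, 0 fell and 7 did not pass edgeR's test, and at an unadjusted p under 0.05 there were 2 (Adamts7 higher and Adamts6 lower). DESeq2 and limma-voom likewise called 1 of the 8, which was higher. Set beside the 18.1% of all tested genes that were called, 1 of 8 is close to the background. The 8 were listed with earlier results of these data known, so this count is a description. Adamts20, which fell, is outside the list. The groups did not overlap in 4 of the 8, against 58.6% of all tested genes. The median log2 fold change of the 8 was 0.02, beside 0.01 over all tested genes. With Adamts15 and Adamts9 included the counts were 1 higher, 2 lower and 7 not past the threshold, from which nothing is read because the pair was chosen on the same values.

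**Figure D3:**
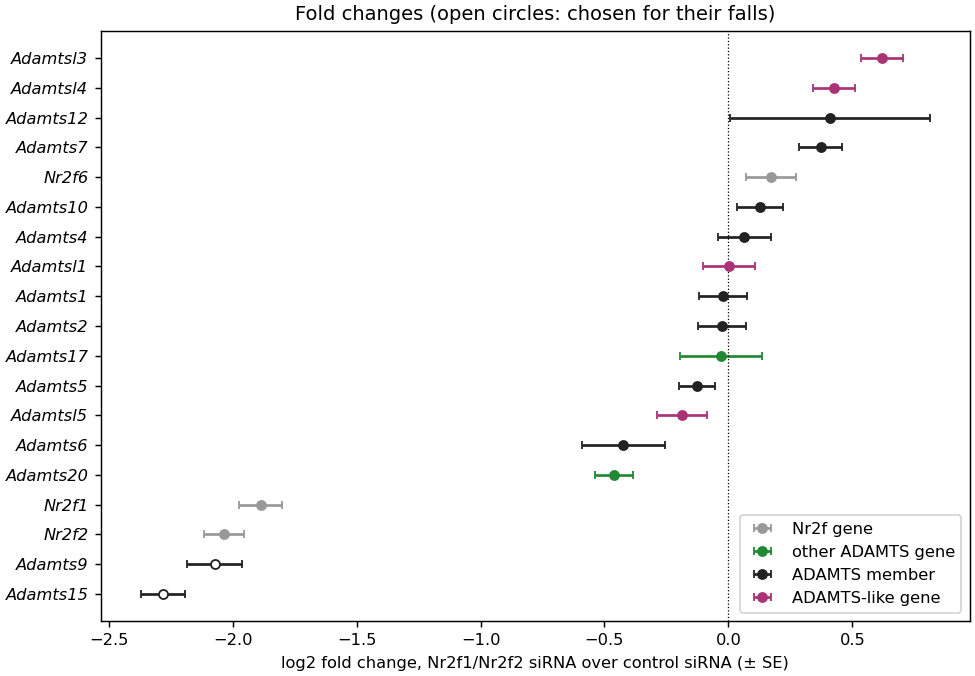
Log2 fold change (Nr2f1/Nr2f2 siRNA over control siRNA) with its standard error for the tested ADAMTS genes, the ADAMTS-like genes and the Nr2f genes, from lowest to highest. Open circles mark Adamts15 (-2.28) and Adamts9 (-2.07), which were chosen for these values and lie beside Nr2f2 (-2.03) and Nr2f1 (-1.89); the remaining ADAMTS genes lie between -0.46 and 0.41.

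Summed over the ADAMTS genes, the level per length was 276.3 and 276.1 CPM per kilobase in the controls, against 239.8 and 230.6 in siRNA A and B. The mean sums were 276.2 ± 0.159 and 235.2 ± 6.55 (SD, n = 2), and the siRNA sum minus the control sum was -41.0 CPM per kilobase. Adamts20 differed by -19.0 CPM per kilobase, more than Adamts15 (-14.4) or Adamts9 (-6.60). Adamts5 differed by -6.22, and Adamts7 by 3.36 in the other direction. Without Adamts15 and Adamts9 the difference of the sum was -20.0 CPM per kilobase, so the chosen pair made up about as much of it as the rest together. The shares of the chosen pair restate the choice. Adamts15 held 6.42% and 6.68% of the summed level in the control libraries and 1.51% and 1.65% in the siRNA libraries. Adamts9 held 3.38% and 2.88% against 0.82% and 0.93%. Adamts5 remained the most abundant ADAMTS transcript per length in each of the 4 libraries, with 26.5% to 29.3% of the sum, though hardly ahead of Adamts20 in control A.

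**Figure D4:**
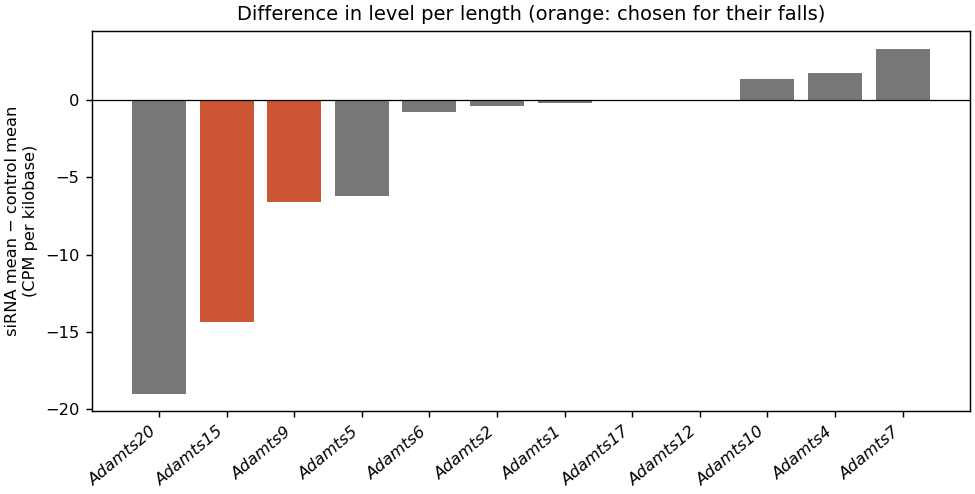
Difference in level per length (siRNA mean minus control mean, CPM per kilobase) for the 12 tested ADAMTS genes. Orange bars are Adamts15 (-14.4) and Adamts9 (-6.60), chosen for their falls; Adamts20 has the longest bar (-19.0) although its relative change was small, and Adamts7 is highest (3.36).

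The genes around the members are given for context. No member overlapped another gene with at least 20 counts. Adamts8, a relative of Adamts15, lies 18182 bases from it on the opposite strand and was near the detection limit, with 6 and 8 counts in the controls and 4 and 0 in siRNA A and B. The rate ratio was 0.193 (exact 95% interval 0.0463 to 0.615, counting error only), and the gene was too low to be tested. The only tested gene within 250000 bases of Adamts15, Zbtb44, did not pass (log2 fold change 0.15, SE 0.18, adjusted p = 0.625), and there was no tested gene within that distance of Adamts9. Adamts1 and Adamts5, which lie 60001 bases apart on chromosome 11, were at -0.02 and -0.13. Called genes lay within that distance of Adamts6 (2 of 7 tested) and Adamts10 (3 of 8 tested), and of none of the other members. Adamts4 had 19 tested genes in its window and Adamts2 had 8, with 0 called. Over all tested genes 18.1% were called, and counts this small say little against that share.

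The genes whose patterns over the 4 libraries were nearest to the chosen pair were the siRNA targets and a few other deep falls. The list includes the targets that fixed the choice, so it is a description. Likeness was measured as the Euclidean distance between log2 CPM profiles centred on each gene's mean, over 9449 candidate protein-coding genes, and 4 libraries that fall into 2 groups make it mostly a likeness in the size of the difference. For Adamts15 the nearest were the guanylate-binding protein gene Gbp5 (distance 0.123), the neurofilament gene Nefl (0.223) and Nr2f2 (0.248). For Adamts9 they were Nr2f2 (0.114), Gbp5 (0.229) and Nr2f1 (0.255). Nr2f2 was at 24.4% of its control level, against 23.7% for Adamts9 and 20.5% for Adamts15, and Gbp5 was at 18.0%. Gbp5 had only 1.42 and 1.62 CPM in siRNA A and B. At that level the 0.5 CPM added to the profiles shrinks its difference and so alters its distances.

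ADAMTS-like genes encode relatives that have the thrombospondin repeats but no protease domain, and both that passed the test rose. In edgeR 2 of the 4 tested genes rose, 0 fell and 2 were not past the threshold. Over all tested genes 8.05% were called higher and 10.0% lower, and 4 genes are too few to set against these shares. Their median log2 fold change was 0.21 beside 0.01 over all tested genes. Adamtsl3 had 232 and 199.6 CPM in controls A and B and 319 and 343 CPM in siRNA A and B (log2 fold change 0.62, SE 0.09, adjusted p = 0.000414). Adamtsl4, whose protein binds fibrillin microfibrils, had 71.4 and 65.7 CPM against 95.2 and 89.2 CPM (0.43, SE 0.09, adjusted p = 0.00479). Both were higher in each siRNA library than in either control library and stayed past the threshold in all 11 alternatives. DESeq2 and limma-voom also called these 2 of the 4 and none lower, and no tested ADAMTS-like gene was lower at an unadjusted p under 0.05. Adamtsl5 (-0.19, SE 0.10, adjusted p = 0.227) and Adamtsl1 (0.00, SE 0.11, adjusted p = 0.984) did not pass. Among the other ADAMTS proteases tested, Adamts17 had 13.7 ± 0.564 CPM in the controls and 13.7 ± 3.25 CPM with the siRNAs (SD, n = 2, adjusted p = 0.923).

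Substrates, inhibitors and maturation factors of the proteases moved in both directions. Of 41 tested genes on these lists, 8 rose, 7 fell and 26 did not pass, with a median log2 fold change of 0.08. With library-size scaling 11 rose and 6 fell. Over all tested genes 8.05% were called higher and 10.0% lower, both smaller shares than on these lists. The lists were chosen with earlier results of these data known, so their counts, also list by list below, are descriptions. Of 3 tested hyalectans and link proteins, 1 rose and 1 fell. Vcan, the gene of versican and so of a main substrate of the Adamts15 and Adamts9 proteases, had 62.7 and 61.5 CPM in the controls, against 88.5 and 98.9 CPM in siRNA A and B (0.60, SE 0.09, adjusted p = 0.000636). Hapln1, which encodes a link protein that fastens such proteoglycans to hyaluronan, fell (-0.54, SE 0.12, adjusted p = 0.007), a call lost without control library A (adjusted p = 0.0534), and Hapln4, the most abundant of the list per length, was at 0.18 (adjusted p = 0.196). The aggrecan gene Acan had no count in the control libraries and 1 and 2 counts in the siRNA libraries.

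Of the 6 fibrillar procollagen genes, 1 rose and 5 did not pass. It was Col2a1, at 50 control and 275 siRNA counts (rate ratio 3.72, exact 95% interval 2.74 to 5.13; log2 fold change 1.88, SE 0.32, adjusted p = 0.00155). The abundant Adamts2 substrate gene Col1a1 was at -0.02 (SE 0.07, adjusted p = 0.870). Col1a2 was at -0.91 with a wide 95% interval of -3.34 to 1.51 (adjusted p = 0.460). Col3a1 did not pass in the main fit (0.20, adjusted p = 0.0611). It passed with DESeq2 (0.0409), limma-voom (0.0392), library-size scaling (0.0214) and upper-quartile scaling (0.0299). Of 15 other substrates and partners, 4 rose, 3 fell and 8 did not pass. The thrombospondin genes Thbs2 (-1.20, SE 0.08) and Thbs1 (-0.73, SE 0.07) and the nidogen gene Nid2 (-0.51, SE 0.07) fell, while the other nidogen gene, Nid1, rose (0.30, SE 0.07, adjusted p = 0.0116). Nid1 lost its call without control B (adjusted p = 0.0653), without siRNA A (0.0622) and without siRNA B (0.0985). The fibrillin genes Fbn1 (1.36, SE 0.14) and Fbn2 (1.17, SE 0.19) rose, beside Adamts10 and Adamts6, which did not pass. Mgp, encoding a matrix calcification inhibitor, rose from 7 counts to 118 (rate ratio 11.4, exact interval 5.36 to 28.9; edgeR adjusted p = 0.00141). Its log2 fold change of 3.48 was 2.83 without control library A and 4.38 without control library B. The most abundant gene of the list per length, the fibronectin gene Fn1, was at -0.19 (adjusted p = 0.107). The Fn1 value was -0.29 without control library B and -0.09 without control library A.

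Of 8 tested inhibitors and uptake receptors, 3 fell, 0 rose and 5 did not pass. At an unadjusted p under 0.05, Timp2 and Lrp1 were higher, and neither DESeq2 nor limma-voom called them, but Timp2 passed with library-size scaling (adjusted p = 0.0413). Timp3, whose product inhibits Adamts4 and Adamts5 proteases, fell (log2 fold change -0.41, SE 0.07, adjusted p = 0.00154), with means of 1234 ± 49.1 and 927.9 ± 12.9 CPM. The syndecan gene Sdc4 (-0.27, SE 0.07, adjusted p = 0.0201) and the inhibitor gene Timp1 (-0.25, SE 0.08, adjusted p = 0.0386) fell less. Sdc4 lost its call when any 1 library was left out (adjusted p = 0.0526 without control A, 0.0549 without control B, 0.101 without siRNA A and 0.139 without siRNA B). Timp1 kept its call without control A and lost it without control B (0.173), siRNA A (0.160) or siRNA B (0.157), and with library-size (0.0913) or upper-quartile scaling (0.0690). Of 9 maturation and secretion genes, 2 rose, 0 fell and 7 did not pass, with 1 lower at an unadjusted p under 0.05 (Hsp90b1), which neither DESeq2 nor limma-voom called. The genes that rose encode proprotein convertases, Pcsk5 (0.41, SE 0.08, adjusted p = 0.00474) and Pcsk6 (0.28, SE 0.09, adjusted p = 0.0410), and Pcsk6 lost its call when any 1 library was left out (adjusted p from 0.0809 to 0.203) and with DESeq2 (0.0575). P4hb, the most abundant of this list per length, was at -0.13 (adjusted p = 0.210).

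**Figure D5:**
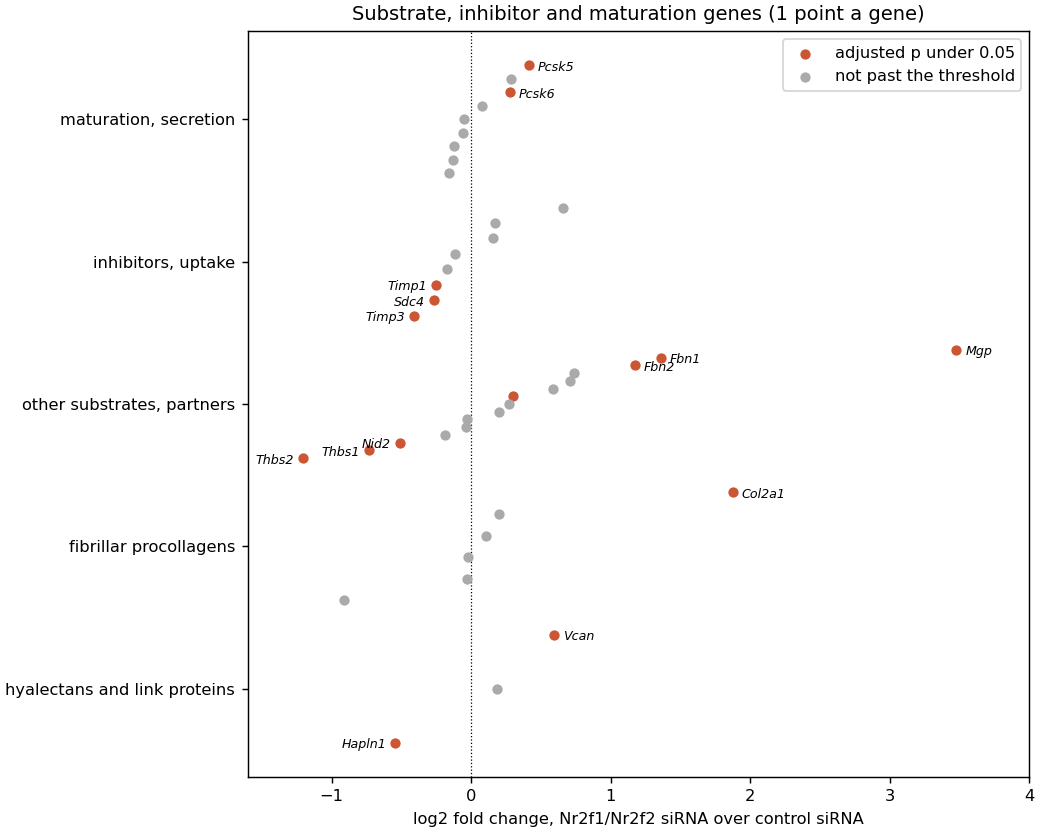
Log2 fold change (Nr2f1/Nr2f2 siRNA over control siRNA) of the 41 tested substrate, inhibitor and maturation genes, 1 point a gene, with orange points past an adjusted p of 0.05 and grey points not past it. On the list of inhibitors and uptake receptors Timp3 (-0.41), Sdc4 (-0.27) and Timp1 (-0.25) lie left of 0, the convertase genes Pcsk5 (0.41) and Pcsk6 (0.28) right of it, and Mgp (3.48) is farthest to the right.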

How the data were processed

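RNA-seq read counts of 4 libraries, 2 per group, were analysed with groups taken from the labels. The deposited count table holds whole-number counts per Ensembl rat gene, and HISAT2, featureCounts 1.5.0-p3 and DESeq2 1.20.0 are named in the submitters' processing notes, with no role given for each. The sources used here give neither build, annotation release nor strand setting. The authors' deposited comparison table lists 17633 genes with FPKM values per library (an alternative level per length here), log2 fold changes and p-values, the last 2 not used for results; 8 further per-library columns were not used. The column numbers do not match the replicate numbers of the titles, so libraries are called A and B.

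Genes were kept by filterByExpr (13018 genes), scaled by TMM and tested with edgeR 4.0.16 (glmQLFit with robust and bias-adjusted dispersion, glmQLFTest) in R 4.3.3, with Benjamini-Hochberg adjustment over all tested genes and a threshold of 0.05. The biological coefficient of variation was 0.111. The F statistic gave standard errors and 95% intervals of log2 fold changes. Level per length is TMM-scaled CPM divided by the deposited gene length in kilobases. Profiles were compared with 0.5 CPM added. Rate ratios of summed counts have exact intervals; the labels name no molecular identifiers, so these cover counting error only. Within a group the libraries were not copies of each other (chi-square of 12.3 per gene in both groups). DESeq2 1.42.0 and limma 3.58.1 were alternatives. The code of all 3 tests was checked on simulated counts, whose values are not given here.

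The members and gene lists were chosen with earlier results of these data known. Genes named are all members, other family genes with at least 10 counts, up to 6 called genes with the smallest adjusted p and the most abundant gene per length of each list, and the 3 nearest profiles. Adamts3, Adamts14, Acan, Col1a2, Col3a1, Nid1, Timp2, Lrp1, Hsp90b1 and neighbouring genes were named after their values were seen. Promoters are from RefSeq (GRCr8). Symbols Adamts13, Thsd4 and Pecam1 of the lists were not found in the count table. Adamts13 and Thsd4 did have promoter windows, which are not described here. Some Schwann cell markers are not reported here.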

Additional observations from a re-analysis of the deposited data

How the results depend on the processing

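Over 11 alternative fits (3 scalings, 2 filters, DESeq2, limma-voom and each library left out), Adamts15 stayed between -2.33 and -2.23 and Adamts9 between -2.19 and -1.95. Of the 8 other members, the number called was 1 in each of the 7 fits on all 4 libraries and from 0 to 1 with a library left out, 0 without control library B or siRNA library A, both times through Adamts7. The number of genes called over the whole table was from 1353 (without siRNA library B) to 1813 (without control library B) with a library left out, against 2350 with all 4, and 1553 without control library A. Library-size scaling made 57.7% of called genes higher and upper-quartile scaling 53.3%, against 44.6% with TMM, and raised the median log2 fold change by 0.052 and 0.034. The signs of Adamts1, Adamts2, Adamts4, Adamts17 and Adamtsl1, all uncalled, differed between settings. The 3 called ADAMTS and ADAMTS-like genes outside the member list were called in all 11 fits. The 15 called substrate, inhibitor and maturation genes became 17 with library-size scaling and 11 without siRNA library B; in 11 of these 41 genes at least 1 alternative changed the call, and no call changed direction. A2m, at 2.95 and 13.2 CPM in siRNA A and B, was called higher without siRNA library A alone (adjusted p = 0.000235). By the authors' deposited FPKM, a differently scaled measure, the mean control sum of ADAMTS levels was 273.6, against 276.2 in TMM-scaled CPM per kilobase. The gap was larger than the SD of the control sums in CPM per kilobase, 0.159. No paired analysis was possible because the groups share only 1 number in the deposited columns, the 3 of control A and siRNA A (control B carries 1 and siRNA B carries 2), and these numbers do not match the replicate numbers of the titles. Depth limits Adamts12 and the untested ADAMTS genes.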
